A study of Mus musculus with 16 samples.

Results

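The secreted Wnt antagonists of *db/db* islets were described from 8 genes, *Sfrp1*, *Sfrp2*, *Sfrp4*, *Sfrp5*, *Frzb*, *Dkk2*, *Dkk3* and *Wif1*, which were found by symbol among the 54532 genes of the deposited count table. The list was drawn up with the baseline levels and the adjudin effect in these samples already known, so the levels and changes of the 8 genes are given as a description, without p values. RNA-seq was performed on handpicked islets of male BKS(D)-Leprdb/JOrlRj mice, 12 to 13 weeks old, a model of type 2 diabetes in which the leptin receptor is defective. After overnight recovery the islets were exposed for 1 day to 10 µmol/l adjudin or to its solvent DMSO, at a glucose concentration of 11 mmol/l. Adjudin and DMSO were each applied to 8 samples, and every one of the 8 batches named in the labels contributed a sample to both treatments. All mice carried the mutation, and islets of lean mice were not analysed here. A sample stood for the islets of 1 to 2 mice.

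Wnt proteins are secreted lipid-modified ligands that bind Frizzled receptors and the co-receptors Lrp5 and Lrp6, and in the canonical pathway stabilise beta-catenin, which then activates genes together with TCF and LEF factors. Secreted antagonists act outside the cell. The secreted Frizzled-related proteins (*Sfrp1*, *Sfrp2*, *Sfrp4*, *Sfrp5* and *Frzb*, also called Sfrp3) carry a cysteine-rich domain like that of the Frizzled receptors and bind Wnt proteins, and Wif1 binds Wnt proteins through a domain of its own. Dickkopf proteins such as Dkk2 bind the co-receptors, while Dkk3 is a divergent member of that family. Islet preparations hold endocrine cells together with fibroblasts, stellate cells, endothelial cells and macrophages, and the counts are sums over all of them.

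After 1 day with adjudin, mRNA of *Sfrp4* and *Sfrp1* was lower and the fitted level of the other 4 tested antagonists was within 10% of that with DMSO. *Sfrp4* was 41.3% lower (log2 fold change -0.77, standard error 0.084) and *Sfrp1* was 34.7% lower (log2 fold change -0.62, standard error 0.093). The most abundant of the 8 listed antagonists, *Frzb*, was 7.14% higher, and *Dkk2* and *Dkk3* had log2 fold changes of -0.07 and -0.09. *Sfrp5* had a log2 fold change of 0.07 that averaged over batches of opposite direction. *Sfrp2* and *Wif1* were close to the limit of detection in both treatments. In these bulk samples, fewer cells of a type and less RNA per cell cannot be told apart.

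Promoter windows of RefSeq (GRCm38.p6, 250 bases before to 50 after the start of transcription) matched 5 of the 8 genes, *Frzb*, *Dkk2*, *Sfrp5*, *Sfrp2* and *Wif1*, and none was matched for *Sfrp1*, *Sfrp4* and *Dkk3*. Shown here are the windows of *Frzb* at chr2:80447347-80447646 (minus strand), the antagonist with the highest level per length, of *Dkk2* at chr3:132085042-132085341 (plus strand), which held a TATA word, and of *Sfrp2* at chr3:83766071-83766370 (plus strand), which had few reads in any sample. Each is written along its gene. Capitals mark the letters TATAAA.
Frzb: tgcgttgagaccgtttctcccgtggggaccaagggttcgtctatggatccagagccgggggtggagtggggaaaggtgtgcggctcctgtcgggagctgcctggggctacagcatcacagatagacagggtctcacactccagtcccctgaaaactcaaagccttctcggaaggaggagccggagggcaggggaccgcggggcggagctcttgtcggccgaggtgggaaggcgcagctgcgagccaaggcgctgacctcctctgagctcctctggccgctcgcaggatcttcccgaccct
Dkk2: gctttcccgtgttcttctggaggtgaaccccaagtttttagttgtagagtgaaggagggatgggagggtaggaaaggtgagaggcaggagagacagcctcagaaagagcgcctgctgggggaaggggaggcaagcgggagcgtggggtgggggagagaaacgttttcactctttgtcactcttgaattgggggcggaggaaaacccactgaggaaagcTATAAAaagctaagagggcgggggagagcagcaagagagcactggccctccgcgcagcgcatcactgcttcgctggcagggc
Sfrp2: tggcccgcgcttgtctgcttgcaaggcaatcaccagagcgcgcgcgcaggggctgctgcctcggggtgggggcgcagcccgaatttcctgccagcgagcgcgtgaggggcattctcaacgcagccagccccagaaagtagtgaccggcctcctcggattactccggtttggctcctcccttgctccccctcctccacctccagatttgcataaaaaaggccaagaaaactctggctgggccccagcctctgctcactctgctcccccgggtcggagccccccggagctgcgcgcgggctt

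The word TATAAA lay 32 bases before the start of *Dkk2*, on the strand of the gene, and was absent from the windows of *Frzb*, *Sfrp2* and *Sfrp5*. On the strand of the gene it occurred in 8.32% of the 32851 RefSeq windows of this length. The *Wif1* window held it once, on the opposite strand. Over both strands 13.6% of all windows held it. None of the 5 windows held, on either strand, any of the 4 words that share the core of the TCF and LEF motif, namely CTTTGAA with its variant CTTTGAT and likewise CTTTGTA with its variant CTTTGTT, against 16.9% of all windows with at least 1. G and C made up 64.7% of the *Frzb* window, 57.7% of the *Dkk2* window and 66.0% of the *Sfrp2* window, against a median of 52.7% over all windows. *Frzb* and *Sfrp2*, far apart in level, thus had windows with similar shares of G and C. The RefSeq starts can differ from the gene models used for counting. They coincide for *Dkk2* and *Sfrp2*. The counted *Frzb* gene, on the minus strand, begins at 80447625, near the upstream end of its window. Most of the *Frzb* window thus lies inside the counted gene. Its share of G and C and its lack of TATAAA describe mainly sequence within that gene.

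Levels of different genes were compared per length, as CPM (read counts scaled to library size with TMM factors) divided by the length of the gene in kilobases. *Frzb* stood far above the other listed antagonists, with 34.6 ± 5.76 CPM per kilobase with adjudin and 32.6 ± 6.78 with DMSO (SD, n = 8 each). *Dkk2* followed with 6.15 ± 1.58 CPM per kilobase with adjudin and 6.48 ± 1.85 with DMSO, and *Sfrp5* with 5.18 ± 1.59 with adjudin and 4.98 ± 1.61 with DMSO (SD, n = 8 each). *Frzb* exceeded *Dkk2* 5.02-fold in the means with DMSO, and their samples did not overlap in either treatment. *Dkk2* and *Sfrp5* could not be ordered, since *Dkk2* was higher in 5 of 8 batches with adjudin and in 4 of 8 with DMSO.
*Dkk3* had 3.15 ± 0.633 CPM per kilobase with adjudin and 3.33 ± 0.371 with DMSO, below *Sfrp5* in 7 of 8 batches with adjudin and 6 of 8 with DMSO. *Sfrp1* had 1.51 ± 0.263 CPM per kilobase with adjudin and 2.36 ± 0.730 with DMSO, and *Sfrp4* had 1.18 ± 0.498 with adjudin and 2.00 ± 0.805 with DMSO (SD, n = 8 each). The ranges of *Dkk3* and *Sfrp1* were apart with adjudin and overlapped with DMSO. *Sfrp1* lay above *Sfrp4* in 6 of 8 batches in either treatment, with overlapping ranges. *Wif1* and *Sfrp2* came last, with 0.11 and 0.0913 CPM per kilobase with adjudin and 0.109 and 0.0721 with DMSO, and every sample of *Sfrp4* exceeded every sample of *Wif1*. *Wif1* and *Sfrp2* could not be ordered, since their ranges overlapped and *Wif1* was the higher one in 5 of 8 batches with adjudin and 7 of 8 with DMSO.
Summed over the 8 genes, antagonist mRNA amounted to 52.0 ± 4.75 CPM per kilobase with adjudin and 51.9 ± 5.77 with DMSO (SD, n = 8 each), and the sum was higher with adjudin in 4 of 8 batches. *Frzb* made up 66.3% ± 5.75 of that sum with adjudin and 62.2% ± 6.93 with DMSO. *Sfrp1* and *Sfrp4* together made up 5.24% ± 1.58 with adjudin and 8.66% ± 3.42 with DMSO, a smaller share with adjudin in 8 of 8 batches. That share restates the changes of these genes, with *Frzb* as the bulk of the sum, and is a description. The sum over these 8 genes, mostly *Frzb*, was thus nearly alike in both treatments while *Sfrp1* and *Sfrp4* supplied a small part of it. It is no total of secreted Wnt inhibitors. *Igfbp4*, for example, lies outside it and had 30.8 CPM per kilobase with adjudin and 33.8 with DMSO.

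**Figure D1:**
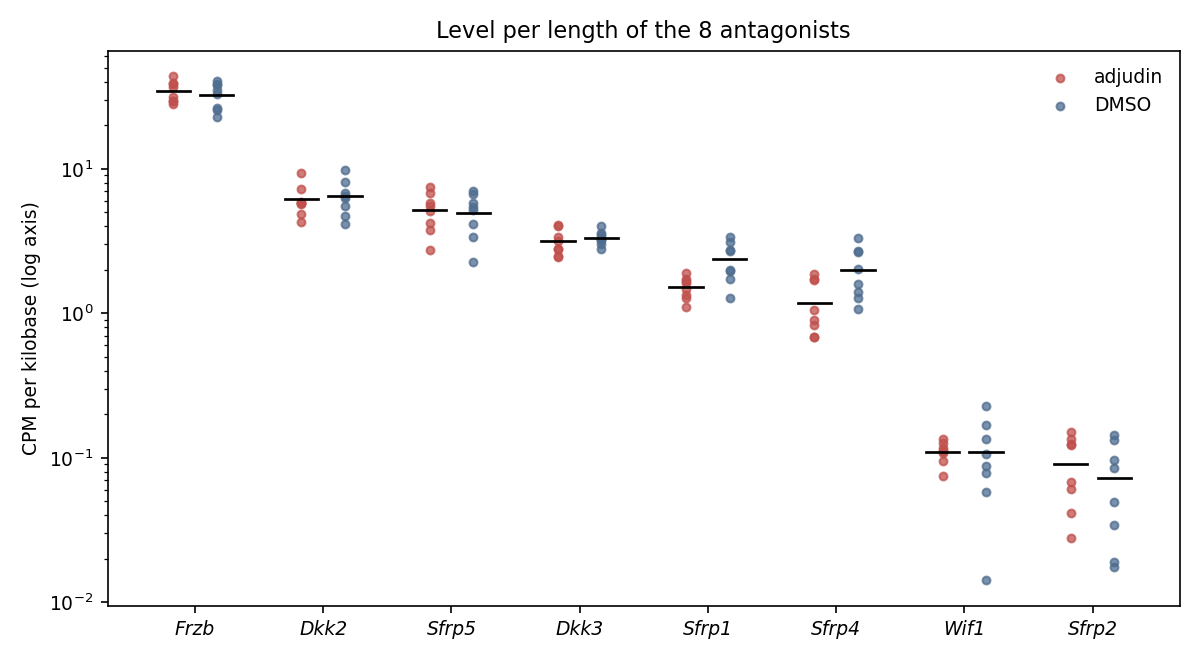
Level per length of each antagonist (CPM per kilobase, log axis), with 1 point per sample, adjudin left of DMSO, and the mean as a black line. *Frzb* lies at 28.0 to 43.9 with adjudin and 22.9 to 40.6 with DMSO, above every sample of the other genes, and *Wif1* and *Sfrp2* lie below every sample of *Sfrp4*.

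*Sfrp4* encodes a secreted Frizzled-related protein made by mesenchymal cells in many organs, and lies on chromosome 13 (ENSMUSG00000021319, GRCm38, 19623104 to 19632994, plus strand). With adjudin its samples had a lowest, median and highest value of 2.85, 4.08 and 7.77 CPM, against 4.45, 7.55 and 13.8 CPM with DMSO. The ranges overlapped between batches, but within a batch the adjudin sample was the lower one in 8 of 8 batches. Of all 16910 tested genes, 3.15% were lower in 8 of 8 batches. None of the 6 tested antagonists was higher in 8 of 8 batches, as 2.22% of all tested genes were. On the log2 scale the within-batch change ran from -1.15 in batch 2, with 3.76 CPM with adjudin against 8.41 CPM with DMSO, to -0.54 in batch 4, with 7.77 CPM with adjudin against 11.3 CPM with DMSO.

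*Sfrp1*, a Frizzled-related antagonist on chromosome 8 (ENSMUSG00000031548, 23411502 to 23449632, plus strand), had a lowest, median and highest value of 4.87, 6.73 and 8.33 CPM with adjudin, against 5.59, 10.3 and 14.8 CPM with DMSO. It was lower with adjudin in 7 of 8 batches, with log2 changes of -0.96 to -0.30 in those 7. Lower values in 7 or 8 batches were seen for 10.4% of all tested genes. The exception was batch 7, with 5.85 CPM with adjudin and 5.59 CPM with DMSO, where the DMSO sample was the lowest of the 8. The ranges of the treatments overlapped. The samples with adjudin were closer together than those with DMSO (SD 1.15 and 3.19 CPM).

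Of the 8 antagonists, 6 had enough counts to be tested in the fit over all genes. *Sfrp1* and *Sfrp4* had an adjusted p under 0.05 from edgeR and the other 4 did not. Among all 16910 tested genes 5.24% passed in either direction, 3.07% lower and 2.17% higher. Because this contrast was in view when the genes were chosen, the count is a description. Without the batch term neither gene passed, in a fit that called 1 of all tested genes.

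**Figure D2:**
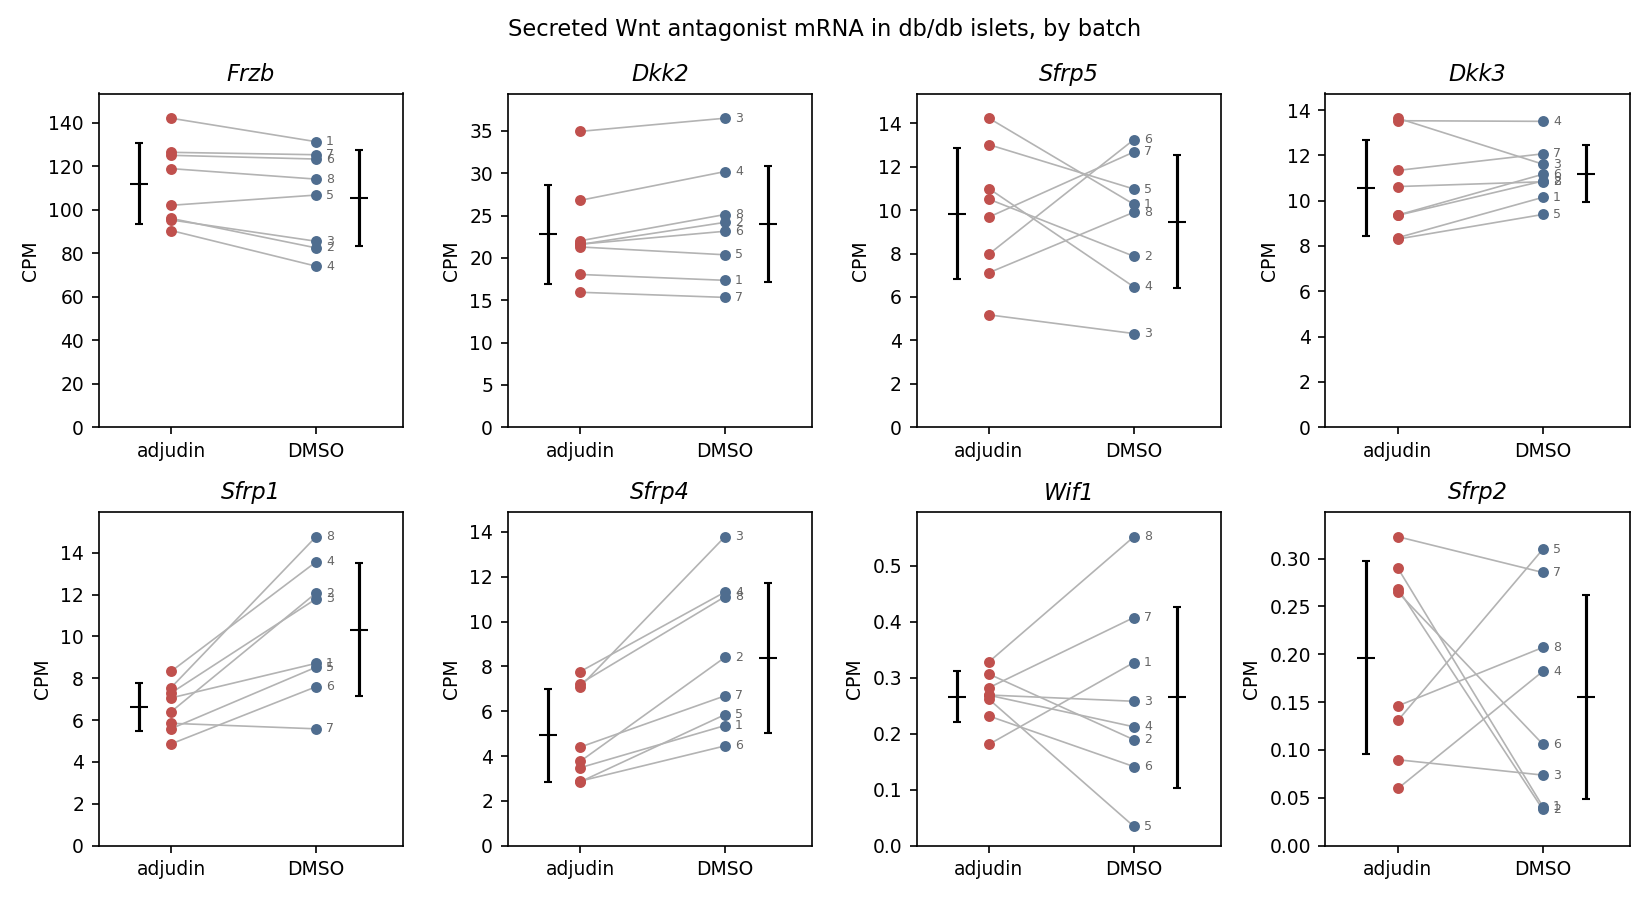
CPM of each antagonist in every sample, adjudin left and DMSO right, with grey lines joining the samples of a batch, batch numbers beside the DMSO points, and black bars giving mean ± SD (n = 8 each). All 8 lines of *Sfrp4* and 7 of 8 lines of *Sfrp1* are lower at the adjudin end, while those of *Sfrp5* cross.

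*Frzb*, a Wnt-binding protein first known from cartilage, lies on chromosome 2 (ENSMUSG00000027004, 80411970 to 80447625, minus strand) and had a lowest, median and highest value of 90.5, 110.5 and 142 CPM with adjudin, against 74.1, 110.5 and 131 CPM with DMSO. The ranges overlapped, with both ends higher with adjudin. Its value was higher with adjudin in 7 of 8 batches, as was that of 9.63% of all tested genes in 7 or 8 batches, with a log2 fold change of 0.10 (standard error 0.036). The within-batch log2 change ran from -0.07 in batch 5 to 0.29 in batch 4.

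*Dkk2*, a Dickkopf protein on chromosome 3 (ENSMUSG00000028031, 132085292 to 132180304, plus strand), had a lowest, median and highest value of 15.9, 21.6 and 34.9 CPM with adjudin, against 15.3, 23.7 and 36.5 CPM with DMSO. It was lower with adjudin in 5 of 8 batches, with a within-batch log2 change of -0.19 to 0.06, while its DMSO samples alone spanned 2.38-fold. *Dkk3* on chromosome 7 (ENSMUSG00000030772, 112116017 to 112159057, minus strand) had a lowest, median and highest value of 8.31, 10.0 and 13.6 CPM with adjudin, against 9.39, 11.0 and 13.5 CPM with DMSO. It was lower in 6 of 8 batches, with log2 changes from -0.28 in batch 1 to 0.23 in batch 3, and had the narrowest spread of the 6 tested genes across DMSO samples (1.44-fold).

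*Sfrp5*, on chromosome 19 (ENSMUSG00000018822, 42197971 to 42202252, minus strand), had a lowest, median and highest value of 5.18, 10.1 and 14.2 CPM with adjudin, against 4.31, 10.1 and 13.3 CPM with DMSO. The 2 distributions were nearly the same, yet the batches differed widely. In batches 1 to 5 *Sfrp5* was higher with adjudin, by log2 changes of 0.47, 0.41, 0.26, 0.76 and 0.24. In batches 6, 7 and 8 it was lower, with log2 changes of -0.73, -0.39 and -0.47. Its SD over batches, 0.529 on the log2 scale, was the largest of the 6 tested antagonists, and its mean change is therefore no summary of any single batch.

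**Figure D3:**
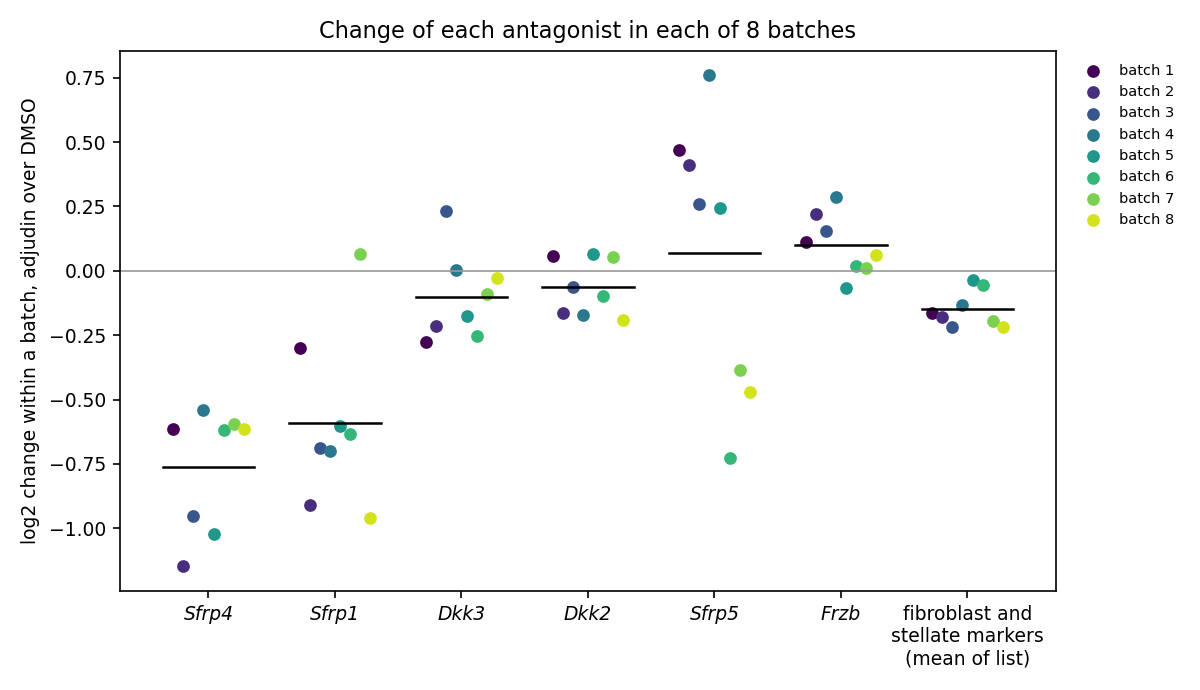
Log2 change within each batch (adjudin over DMSO) of the 6 tested antagonists and of the mean of 23 fibroblast and stellate cell markers, with 1 point per batch and the mean as a line. *Sfrp4* lies between -1.15 and -0.54, *Sfrp5* between -0.73 and 0.76, and the marker mean between -0.22 and -0.04.

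*Wif1* and *Sfrp2* were counted in every sample but only just. *Wif1*, on chromosome 10 (ENSMUSG00000020218, 121033960 to 121100650, plus strand), had 5 to 9 reads per sample with adjudin and 1 to 16 with DMSO, with sums of 62 and 58 reads. *Sfrp2*, on chromosome 3 (ENSMUSG00000027996, 83766321 to 83774316, plus strand), had 2 to 8 reads per sample with adjudin and 1 to 9 with DMSO, with sums of 44 and 35 reads. When genes with low counts were kept in the fit, their log2 fold changes were 0.14 (standard error 0.40) and 0.33 (standard error 0.53). A difference between the treatments was not detectable at this depth.

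Markers of the cell types present in such preparations were measured in the same samples. Their lists were chosen with earlier results of these data known. Of all tested genes, 3.07% fell and 2.17% rose (edgeR, adjusted p under 0.05). Of 23 fibroblast, stellate cell and pericyte markers, 10 fell and none rose with adjudin (edgeR, adjusted p under 0.05), with a median log2 fold change of -0.16, against 0.0032 over all tested genes. Their summed level was 11731 to 22927 CPM with adjudin and 12086 to 25352 CPM with DMSO. Of 13 macrophage and leukocyte markers, 10 fell and none rose, with a median of -0.38 and a summed level of 593 to 855 CPM with adjudin and 619 to 1251 CPM with DMSO. Of 10 beta cell markers, 3 rose and none fell, with a median of 0.13. Their summed level was 40095 to 105240 CPM with adjudin and 36015 to 121621 CPM with DMSO. The alpha and delta cell markers had medians of 0.13 and 0.16, and none of them passed. Of 7 mesothelial markers 4 were tested and *Wt1* was the 1 that fell (log2 fold change -0.62, edgeR adjusted p = 0.0137), *Msln* averaged 5.63 CPM with adjudin and 5.42 CPM with DMSO, and *Upk3b*, *Upk1b* and *Lrrn4* had 3 to 9 reads in all per treatment. Their summed level, mostly from *Krt19* that duct cells share, was 160.0 to 289.7 CPM with adjudin and 167 to 302 CPM with DMSO.
Changes were also taken relative to the mean change of the fibroblast and stellate markers in the same batch. On this scale *Sfrp4* was lower in 8 of 8 batches, by a log2 change of -0.61 ± 0.25. *Sfrp1* was lower in 7 of 8, by -0.44 ± 0.34 (SD over 8 batches). Single markers of the list had log2 fold changes from -0.35 (*Rgs5*) to 0.14 (*Pdpn*), so their mean need not follow each cell type. The marker mean itself changed by -0.15 ± 0.070 and was lower in 8 of 8 batches. Relative to the marker mean, *Frzb* had a log2 change of 0.25 ± 0.16, *Dkk2* of 0.09 ± 0.11 and *Dkk3* of 0.05 ± 0.21. The part of the other cell types in these results was not tested.

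For each of the 6 tested antagonists, the 3 genes whose log2 CPM ran most like it over the 16 samples were taken from 13721 candidates. *Il33* was among them for both *Sfrp1* and *Sfrp4*, and no other gene was named more than once. The samples of a batch deviated together and are not independent, so these coefficients are descriptions. Treatment was not removed either, so a change with adjudin that both genes share enters the coefficient. The genes named for *Sfrp1* and *Sfrp4* had log2 fold changes of -0.68 (*Il33*), -0.35 (*Thbs2*), -0.33 (*Pmaip1*), -0.22 (*Basp1*) and -0.17 (*Pdlim4*). *Sfrp1* ran most like *Basp1* (Pearson's r = 0.92), the matrix protein gene *Thbs2* (0.89) and the alarmin gene *Il33* (0.89), and *Sfrp4* most like *Il33* (0.91), *Pdlim4* (0.90) and *Pmaip1* (0.90). *Dkk2* ran most like *Glipr2*, the proteoglycan gene *Dcn* and *Acsl4* (0.91 each), and *Dkk3* most like *Pi16*, *Gas1* and *Cndp2* (0.80, 0.79 and 0.79). *Frzb* ran most like *Nipal3*, *Phyhip* and *Tmem108* (0.98, 0.98 and 0.97).
*Sfrp5* ran most like the glucagon gene *Gcg* (r = 0.93), the alpha cell transcription factor gene *Irx2* (0.90) and *Pdk4* (0.89), a kinase that restrains pyruvate oxidation. *Gcg* was higher with adjudin in batches 1 to 5, by log2 changes of 0.58, 0.15, 0.44, 0.79 and 0.15, and had log2 changes of -0.61, 0.05 and -0.33 in batches 6, 7 and 8. In batch 4 *Sfrp5* had 11.0 CPM with adjudin against 6.46 CPM with DMSO, beside 10148 CPM against 5877 CPM of *Gcg*. In batch 6 *Sfrp5* had 7.98 CPM with adjudin against 13.3 CPM with DMSO, beside 6732 CPM against 10258 CPM of *Gcg*. The direction of *Sfrp5* thus matched that of *Gcg* in every batch except batch 7. Its values in each batch were set beside *Gcg* after they had been seen.

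Whether an antagonist varied between batches together with the fibroblast and stellate markers was tested in the 8 samples with DMSO, over 8 relations. *Dkk2* had the closest relation, with Pearson's r = 0.84 (exact permutation test, two-sided, p = 0.0112, adjusted p = 0.0897) and Spearman's rho = 0.86 (exact permutation p = 0.0107, adjusted p = 0.0857), and r = 0.83 without batches 4 and 7, which lay farthest from the median marker level. *Frzb* ran the other way, with r = -0.75 (exact permutation p = 0.0282, adjusted p = 0.113) and rho = -0.64 (exact permutation p = 0.0962, adjusted p = 0.385), and r = -0.48 without those batches. *Sfrp1* had r = 0.64 (exact permutation p = 0.0850, adjusted p = 0.227) and rho = 0.48 (exact permutation p = 0.243, adjusted p = 0.389), with r = 0.24 without them. *Sfrp4* had r = 0.54 (exact permutation p = 0.172, adjusted p = 0.237) and rho = 0.50 (exact permutation p = 0.216, adjusted p = 0.389), with r = 0.45 without them. The other 4 antagonists had r of -0.57 (*Sfrp5*), 0.52 (*Dkk3*), -0.25 (*Wif1*) and 0.07 (*Sfrp2*), with rho of -0.50, 0.38, -0.26 and -0.02 (exact permutation p of r 0.143, 0.178, 0.553 and 0.868, of rho 0.216, 0.36, 0.536 and 0.977). None of the 8 relations passed the correction.

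Other genes of the Wnt pathway were taken from lists by role. Of 94 such genes, 78 had enough counts, of which 11 fell and 3 rose with adjudin (edgeR, adjusted p under 0.05), with a median log2 fold change of -0.0098. These are 14.1% and 3.85% of the tested ones, against 3.07% and 2.17% of all tested genes. The lists were chosen with earlier results of these data known, so these shares are a description.
Among 14 tested ligands and genes of ligand release, *Wnt2*, *Wnt9a* and *Wnt11* fell and *Wnt5a* rose. *Wnt2*, a ligand of mesenchymal cells in several organs, had 4.46, 5.31 and 9.36 CPM with adjudin, against 6.42, 7.87 and 11.2 CPM with DMSO, as lowest, median and highest value. It was lower in 8 of 8 batches (log2 fold change -0.55, standard error 0.084, edgeR adjusted p = 0.00111). *Wnt11*, a ligand best known for signals that do not use beta-catenin, averaged 28.4 ± 5.15 CPM with adjudin and 35.7 ± 9.50 CPM with DMSO (log2 fold change -0.31, standard error 0.047, edgeR adjusted p = 9.4e-04). *Wnt9a* averaged 13.6 ± 1.5 CPM with adjudin and 17.7 ± 3.94 CPM with DMSO (log2 fold change -0.36, standard error 0.059, edgeR adjusted p = 0.0020). *Wnt5a*, which also signals largely without beta-catenin, averaged 57.4 ± 14.7 CPM with adjudin and 51.2 ± 14 CPM with DMSO and was higher in 8 of 8 batches (log2 fold change 0.17, standard error 0.032, edgeR adjusted p = 0.0068). *Wnt4*, the most abundant ligand per length with 34.7 CPM per kilobase with adjudin and 32.3 with DMSO, had a log2 fold change of 0.12 (edgeR adjusted p = 0.0876).
Of 18 receptors and related membrane proteins, *Fzd1* and *Fzd2* fell and none rose. *Fzd1*, the most abundant at 31.8 CPM per kilobase with adjudin and 37.7 with DMSO, was lower in 8 of 8 batches (log2 fold change -0.24, standard error 0.030, edgeR adjusted p = 2.6e-04). *Fzd2* averaged 10.0 ± 2.41 CPM with adjudin and 13.4 ± 2.93 CPM with DMSO (log2 fold change -0.42, edgeR adjusted p = 0.00941). Among 6 tested R-spondins, secreted amplifiers of the pathway, and their Lgr receptors, *Lgr6* fell (13.3 ± 1.85 CPM with adjudin and 17.6 ± 2.97 CPM with DMSO, edgeR adjusted p = 9.0e-04) and *Rspo4* rose by a log2 fold change of 0.16 (edgeR adjusted p = 0.0308).
Of 9 further secreted inhibitors, 6 had too few counts to be tested, and among the other 3 *Igfbp4*, a binding protein of insulin-like growth factors, fell (log2 fold change -0.12, edgeR adjusted p = 0.0434). *Igfbp4* had 30.8 CPM per kilobase with adjudin and 33.8 with DMSO, close to *Frzb* with 34.6 and 32.6. *Dkk1* had 3 reads in all samples with adjudin and 0 in those with DMSO, and *Dkk4* had 1 and 0. Of 6 tested membrane inhibitors, *Trabd2b*, a Wnt-cleaving protease, and the Dickkopf receptor gene *Kremen1* fell (log2 fold changes -0.25 and -0.12, edgeR adjusted p = 0.0279 and 0.0353).
Of 17 intracellular genes *Bcl9*, a partner of beta-catenin, was the 1 that passed, higher in 8 of 8 batches with 67.3 ± 9.97 CPM with adjudin and 59.3 ± 10.3 CPM with DMSO (log2 fold change 0.19, standard error 0.030, edgeR adjusted p = 0.0019). The beta-catenin gene *Ctnnb1* had a log2 fold change of 0.04 (edgeR adjusted p = 0.482). Of 14 tested genes known as beta-catenin targets in some tissues, *Wisp2* and *Jag1* fell (log2 fold changes -0.51 and -0.11, edgeR adjusted p = 0.0365 and 0.0355). The feedback target *Axin2* averaged 11.9 ± 0.921 CPM with adjudin and 12.5 ± 1.17 CPM with DMSO (log2 fold change -0.07, edgeR adjusted p = 0.460), and *Nkd1* had a log2 fold change of 0.08 (edgeR adjusted p = 0.679). *Cd44*, the most abundant of the list per length, had 0.09 (edgeR adjusted p = 0.0875).
*Wnt2*, *Wnt9a*, *Wnt11*, *Wnt5a*, *Fzd1*, *Fzd2*, *Lgr6* and *Bcl9* passed with any 1 batch left out. The other 6 lost the call in several such fits: *Trabd2b* passed in 4 of 8 such fits, *Igfbp4*, *Kremen1* and *Rspo4* in 3, *Jag1* in 2 and *Wisp2* in 1, with largest adjusted p values of 0.0875 to 0.151 from edgeR (*Rspo4* without batch 3 and *Igfbp4* without batch 4).

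**Figure D4:**
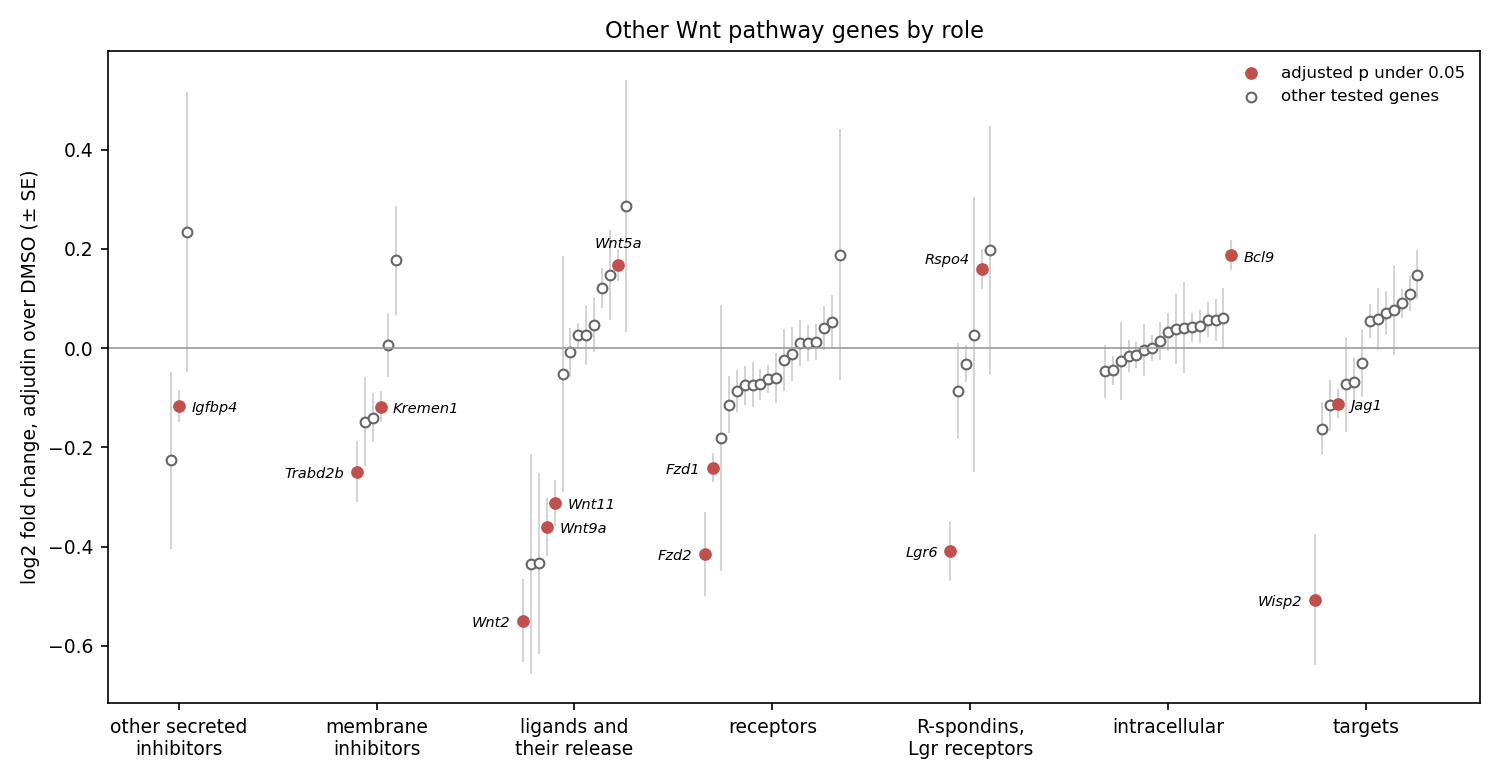
Log2 fold change (adjudin over DMSO) ± standard error of the tested Wnt pathway genes outside the antagonist list, grouped by role, with filled points for an adjusted p under 0.05 from edgeR. The named filled points lie below 0 for 11 genes and above 0 for *Wnt5a*, *Rspo4* and *Bcl9*.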

How the data were processed

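RNA was sequenced from 16 samples of *db/db* islets, and per the labels and the methods read pairs were mapped by the authors with HISAT2 2.0.5 (GRCm38/mm10) and assigned to genes by featureCounts 1.5.0-p3. The deposited values are raw counts without normalisation, for 54532 genes in 16 columns, 1 per sample. For the strand setting and the annotation, details were not given in the sources used here, and reads of overlapping antisense genes may be included. Gene lengths and coordinates are those of the deposited table. Counts totalled 24852862 to 34471164 per sample with adjudin and 24190102 to 32675186 with DMSO.

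Genes were filtered with filterByExpr, leaving 16910, scaled with TMM factors and tested with the quasi-likelihood test of edgeR 4.0.16 in R 4.3.3, with batch and treatment as terms and Benjamini-Hochberg adjustment over all 16910. The threshold was 0.05. Each standard error was obtained by dividing the size of the log2 fold change by the root of its F statistic. Within-batch changes are differences of log2 CPM with a prior count of 2. The batch numbers come from the labels; deviations from the mean of the treatment were correlated between same-numbered samples (0.37 to 0.69 in the 8 batches; the median for samples of unlike number was -0.18), so batch was treated as a pairing. Whether both samples of a batch came from the same mice is not stated. No 2 samples of a treatment were identical or differed by less than sampling noise. The analysis was tested on simulated counts.

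Correlations used all 40320 pairings of 8 samples. The antagonists and all gene lists were chosen with earlier results of these data known. Beyond the 8 antagonists, the text names in each Wnt list up to 4 genes with the smallest p among those that passed, the most abundant gene per length, *Axin2* and *Nkd1*, and, for each tested antagonist, the 3 genes with the highest Pearson's r among those whose mean log2 CPM was 1 or more. *Dkk1*, *Dkk4* and the mesothelial markers were named after their values were seen. Marker lists of Schwann, endothelial, alpha, delta, PP, acinar and duct cells were also counted. Of these, 2 endothelial markers rose, 1 acinar and 2 duct markers fell, and none of the Schwann, alpha, delta and PP markers passed. Median log2 fold changes were -0.29 (Schwann), 0.08 (endothelial), 0.13 (alpha), 0.16 (delta), 0.04 (PP, 1 gene), -0.24 (acinar) and 0.02 (duct). Alternatives were DESeq2 1.42.0, limma-voom (limma 3.58.1), no batch term, RLE scaling, no filter on low counts, each batch left out, and changes relative to fibroblast markers.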

Additional observations from a re-analysis of the deposited data

How the results depend on the processing

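*Sfrp1* and *Sfrp4* passed in every fit with the batch term, whichever batch was left out. Their log2 fold changes were -0.70 to -0.56 and -0.81 to -0.72 over the fits without 1 batch. In each of those fits 2 antagonists were called lower. Both genes were chosen with this contrast in these samples in view, so their calls in these fits are a description. The fit without the replicate block called 1 gene higher and 0 lower, 0 antagonists lower, and 0 other Wnt genes in either direction. At an unadjusted p under 0.05 this edgeR fit had 201 genes higher and 389 lower, among them 0 and 7 of the other Wnt genes; with the block, DESeq2 and limma-voom called 1044 and 916 genes. Without a filter on low counts 826 genes were called higher (367 with it), 1 antagonist, *Frzb*, was called higher (0 with it), and 6 other Wnt genes were called higher. DESeq2 called 5 other Wnt genes higher. With 1 batch left out, 139 to 546 genes were called higher and 273 to 525 lower (519 with all), and 2 to 5 other Wnt genes higher and 6 to 10 lower. The lowest counts came without batch 4, and the counts without batches 2, 3 and 8 were 223, 160 and 190 higher and 325, 299 and 283 lower. *Sfrp5* changed sign between such fits (-0.03 to 0.19). In the samples with adjudin the relation of *Sfrp2* and *Wif1* to the fibroblast level had the opposite sign to that with DMSO (r = -0.77 and 0.16, adjusted p = 0.167 and 0.716 from the exact permutation test). There *Sfrp1*, *Sfrp4* and *Sfrp5* had r of 0.19, 0.31 and -0.19 (0.64, 0.54 and -0.57 with DMSO), and of -0.60, -0.05 and -0.52 without batches 4 and 7. The cause was not tested. Reads of 1 to 16 per sample limit what can be said of *Sfrp2* and *Wif1*. No sample stood apart from the other 7 of its treatment by Dixon's ratio for any antagonist in log2 CPM, and no batch did in the within-batch log2 change.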
